A study of Mus musculus with 2 samples.

Results

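The dual-specificity MAP kinase phosphatases are enzymes that remove phosphate from both the threonine and the tyrosine of the activation loop of MAP kinases and so turn these kinases off. The 10 members described here (Dusp1, Dusp2, Dusp3, Dusp4, Dusp5, Dusp6, Dusp7, Dusp8, Dusp10 and Dusp16) were chosen by gene symbol. All 10 were found by gene identifier among the 55536 mouse genes of the gene tables, and their levels were read in 2 libraries of a single condition.

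The RNA came from the nuclear fraction of bone-marrow-derived macrophages (BMDM) of C57BL/6J mice and was sequenced after depletion of ribosomal RNA. Lipid A, the part of lipopolysaccharide that is sensed by TLR4, was given at 100 ng/ml for 12 h and washed away for 12 h before a further 120 min at the same dose. Both replicates are of that 1 group and carry the same donor label, sex and age were not collected, and nothing states that the cultures came from separate mice, so the spread between the libraries may be technical. The fraction is called the nucleus in one label and nucleoplasmic in another, and the libraries were made from 1 µg of RNA for replicate 1 and 500 ng for replicate 2. Cells without Lipid A or given it once were not analysed here, so the values are levels in cells given Lipid A a second time, not responses.

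MAP kinase signalling from TLR4 runs through ERK, JNK and p38, and the phosphatases end it at different places in the cell. Dusp1 (MKP-1), Dusp2 (PAC-1), Dusp4 (MKP-2) and Dusp5 reside in the nucleus and are products of inducible genes, Dusp6 (MKP-3) and Dusp7 (MKP-X) act on ERK in the cytoplasm, and Dusp8, Dusp10 (MKP-5) and Dusp16 (MKP-7) prefer JNK and p38. Dusp3 (VHR) is a small, atypical member that lacks the kinase-binding domain of the others. In macrophages Dusp1 is the best-known brake on p38 and on cytokine output after lipopolysaccharide. All of them share a catalytic loop in which a cysteine takes the phosphate and an arginine holds it.

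The codons of that loop are shown because they are what makes the 10 genes a family and because the transcripts described further on either keep or lack them. They were read from the GENCODE M21 transcripts (mm10), 5′ to 3′ on the coding strand, with the codons of the catalytic cysteine and arginine in capitals.
Dusp1: catTGCcaggccggcatctccCGG
Dusp2: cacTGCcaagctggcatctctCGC
Dusp4: cacTGCcaggccggcatctccCGA
Dusp5: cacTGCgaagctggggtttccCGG
Dusp6: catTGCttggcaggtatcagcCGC
Dusp7: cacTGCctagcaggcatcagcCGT
Dusp8: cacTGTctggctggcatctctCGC
Dusp10: cacTGCcaggccggcgtgtccCGA
Dusp16: cacTGCttagctgggatctctCGC
Dusp3: catTGCcgcgagggctacagcCGC

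Each loop lies within a single exon. That of Dusp1 is at chr17:26506592-26506615 on the minus strand and that of Dusp2 at chr2:127337616-127337639 on the plus strand. Also on the plus strand are those of Dusp4 (chr8:34818433-34818456), Dusp5 (chr19:53540951-53540974), Dusp6 (chr10:99266027-99266050), Dusp7 (chr9:106373674-106373697) and Dusp10 (chr1:184074293-184074316). Those of Dusp8 (chr7:142083333-142083356), Dusp16 (chr6:134720559-134720582) and Dusp3 (chr11:101974902-101974925) are on the minus strand. Over the 45 pairs of members, 11 to 22 of the 24 bases were identical, with a median of 17. The most alike were Dusp1 with Dusp4 and Dusp10 with Dusp4, at 22 bases each, and the least alike was the pair of Dusp3 and Dusp5, at 11. Dusp8 is the member that spells its cysteine codon TGT.

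The libraries held 28450309 expected counts on mouse genes in replicate 1 and 16940220 in replicate 2. Genes of the mitochondrial genome took 4.15% of the counts in replicate 1 and 10.3% in replicate 2. Short structural and mitochondrial RNAs together held 76.0% of the TPM (the length-corrected portion of a library's transcripts that a gene holds) in replicate 1 and 67.8% in replicate 2, so a member's TPM also depends on how much of those a library held. All 7 macrophage markers were detected, with a summed level of 2398 TPM in replicate 1 and 2472 in replicate 2. Of 32 markers of 7 other cell types, 1 was detected, the endothelial gene Kdr, and the summed level of a list ran from 0 to 12.7 TPM. In such bulk RNA, fewer cells that express a gene and less of its RNA per cell cannot be told apart.

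Of the 10 members, 6 were detected, which means TPM 1 or more in both libraries: Dusp2, Dusp1, Dusp16, Dusp3, Dusp4 and Dusp7. By the same rule 18.8% of all genes and 39.6% of protein-coding genes were detected. Dusp6, Dusp8 and Dusp10 were under TPM 1 in both libraries, and Dusp5 was under it in replicate 1 only. The median of all 10 members was 4.69 TPM in replicate 1 and 5.13 in replicate 2 (mean 4.91 ± 0.315, SD, n = 2). The median over 22028 protein-coding genes was 0.18 TPM in replicate 1 and 0.29 in replicate 2, and that over all genes was 0 in both.

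The inducible nuclear phosphatases held the largest portion of the family's TPM of any role. Dusp2, known from activated lymphocytes and macrophages, had the highest level of the 10 in both libraries of the gene tables, whereas the second transcript tables put Dusp16 above it in replicate 2. It lies at chr2:127336159-127338376 on the plus strand (ENSMUSG00000027368.6) and had 42.8 TPM in replicate 1 and 28.9 in replicate 2 (35.8 ± 9.86, SD, n = 2). These levels placed it at percentile 96.6 of protein-coding genes in replicate 1 and 92.8 in replicate 2. Its deposited credibility interval ran from 40.2 to 44.0 TPM in replicate 1 and from 25.2 to 29.97 in replicate 2, and these intervals did not overlap. The second transcript tables, made from the same reads, gave Dusp2 21.4 TPM in replicate 1 and 20.6 in replicate 2. Neither the level nor the gap in TPM between the libraries therefore held across the tables. The gap in scaled counts, described further on, did hold, with a log2 ratio of 1.47 in the second transcript tables against 1.30.

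Dusp1, the MKP-1 that dephosphorylates p38 and JNK, followed with 29.3 TPM in replicate 1 and 18.3 in replicate 2 (23.8 ± 7.83, SD, n = 2). It lies at chr17:26505590-26562128 on the minus strand (ENSMUSG00000024190.7). The lowest Dusp2 library, at 28.9 TPM, was below the highest Dusp1 library, at 29.3 TPM, so the levels of these genes overlapped between libraries although Dusp2 was above Dusp1 within each. Dusp4 (chr8:34807297-34819894, plus strand, ENSMUSG00000031530.6), the nuclear MKP-2, was lower, with 4.92 TPM in replicate 1 and 6.14 in replicate 2 (5.53 ± 0.863, SD, n = 2). Dusp5 (chr19:53529109-53542431, plus strand, ENSMUSG00000034765.6), a nuclear phosphatase specific for ERK, had 0.53 TPM in replicate 1 and 1.12 in replicate 2 (0.825 ± 0.417, SD, n = 2), from 58.9 and 53 expected counts. These 4 genes summed to 77.6 TPM in replicate 1 and 54.4 in replicate 2, which was 70.4% and 53.6% of the family's TPM in those libraries, and 63.5% and 46.8% in the second transcript tables. Within this group, Dusp2 and Dusp1 were high and Dusp4 and Dusp5 low in both libraries, with no overlap between the pairs.

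Among the phosphatases that prefer JNK and p38, nearly all of the RNA was Dusp16. Dusp16 (chr6:134715468-134792625, minus strand, ENSMUSG00000030203.17) had 15.7 TPM in replicate 1 and 26.1 in replicate 2 (20.9 ± 7.40, SD, n = 2). It stood at percentile 90.2 of protein-coding genes in replicate 1 and 91.9 in replicate 2. Dusp10 (chr1:184013302-184075636, plus strand, ENSMUSG00000039384.8), the MKP-5 whose loss in mice is known to raise JNK activity in immune cells, had 0.36 TPM in replicate 1 and 0.70 in replicate 2, from 45 and 28 counts. Dusp8 (chr7:142079490-142095843, minus strand, ENSMUSG00000037887.11), best known from brain and heart, had 0.41 TPM in replicate 1 and 0.32 in replicate 2, from 91 and 24 counts. The order of Dusp10 and Dusp8 changed between the libraries, and the group's sum of 16.4 TPM in replicate 1 and 27.1 in replicate 2 was that of Dusp16 almost alone.

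The phosphatases of cytoplasmic ERK were low to moderate. Dusp7 (chr9:106368632-106375724, plus strand, ENSMUSG00000053716.9) had 4.45 TPM in replicate 1 and 4.12 in replicate 2 (4.29 ± 0.233, SD, n = 2). Dusp6 (chr10:99263231-99267489, plus strand, ENSMUSG00000019960.8), a classical feedback target of ERK itself, had 0.84 TPM in replicate 1 and 0.77 in replicate 2 (0.805 ± 0.0495, SD, n = 2), from 96 and 36 counts. Dusp7 was above Dusp6 in both libraries. The atypical Dusp3 (chr11:101971143-101987013, minus strand, ENSMUSG00000003518.13), which acts on ERK and JNK, had 10.9 TPM in replicate 1 and 15.0 in replicate 2 (13.0 ± 2.94, SD, n = 2).

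**Figure D1:**
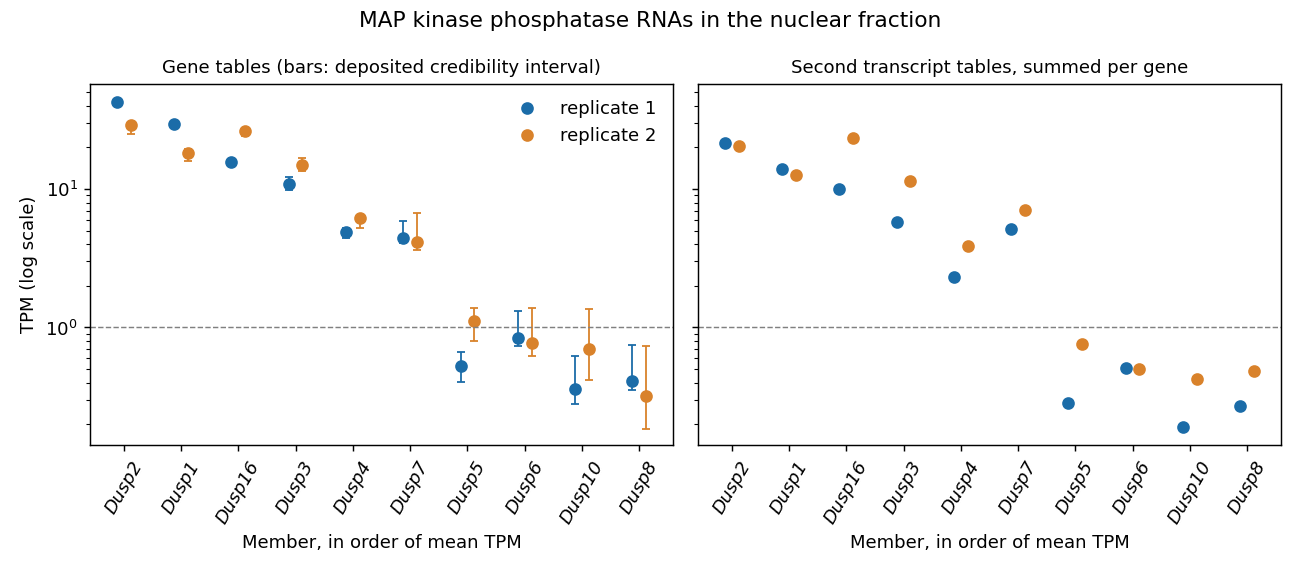
Level of each member in TPM on a log scale, replicate 1 (blue) beside replicate 2 (orange), from the gene tables with the deposited credibility intervals as bars (left) and from the second transcript tables summed per gene (right); the dashed line is TPM 1. Dusp2, Dusp1, Dusp16 and Dusp3 lie above 10 TPM in both libraries of the gene tables, Dusp4 and Dusp7 near 5, and the other 4 near or below 1.

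In the order of mean TPM, the TPM values of 5 of the 9 pairs of neighbours did not overlap between libraries. These were Dusp16 above Dusp3, Dusp3 above Dusp4, Dusp4 above Dusp7, Dusp7 above Dusp5, and Dusp6 above Dusp10. The deposited credibility intervals were also apart for Dusp3 over Dusp4 and for Dusp7 over Dusp5. They overlapped for Dusp16 and Dusp3, for Dusp4 and Dusp7 (4.46 to 5.23 against 4.05 to 5.85 TPM in replicate 1), and for Dusp6 and Dusp10. The last were 0.623 to 1.38 against 0.415 to 1.35 TPM in replicate 2, from 36 and 28 counts. The gap was narrow for Dusp16 and Dusp3, at 15.7 against 15.0 TPM for the nearest libraries, and wide for Dusp7 over Dusp5, at 5.19 times by the means. The other 4 pairs, Dusp2 with Dusp1, Dusp1 with Dusp16, Dusp5 with Dusp6 and Dusp10 with Dusp8, overlapped between libraries. Of these pairs, Dusp2 was above Dusp1 within each library, and the order of the others changed between the libraries. Dusp1 was above Dusp16 in replicate 1 and below it in replicate 2 in both kinds of table (14.1 and 12.7 TPM for Dusp1 against 9.97 and 23.3 for Dusp16 in the second transcript tables). The second transcript tables put Dusp7 above Dusp4 in both libraries, so the order of this pair rests on the table used. They also gave levels lower by more than 1.5 times for Dusp2, Dusp1, Dusp3, Dusp4, Dusp5, Dusp6 and Dusp10. The mean TPM there was 13.4 for Dusp1, 8.59 for Dusp3, 3.08 for Dusp4, 0.522 for Dusp5, 0.505 for Dusp6 and 0.307 for Dusp10.

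The tables also divide a gene's RNA among its annotated transcripts, and for Dusp1 and Dusp2 much of it was placed on transcripts that keep an intron. Dusp1-203, which keeps intron 2, had 8.52 TPM in replicate 1 and 5.75 in replicate 2. Dusp1-204, which keeps intron 3, had 8.61 TPM in replicate 1 and 4.28 in replicate 2. Together they held 58.4% of the TPM of Dusp1 in replicate 1 and 54.9% in replicate 2 (56.7 ± 2.48, SD, n = 2), more than the coding transcripts in both libraries. Dusp2-202, which keeps intron 2, had 14.2 TPM in replicate 1 and 12.2 in replicate 2, or 33.1% and 42.1% of the TPM of Dusp2 (37.6 ± 6.36, SD, n = 2).

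Among the 6823 protein-coding genes that averaged 10 or more counts and have an annotated retained-intron transcript, Dusp1 stood at percentile 91.6 in replicate 1 and 81.0 in replicate 2, and Dusp2 at 66.0 and 66.7. The median share of these genes was 23.4% in replicate 1 and 29.7% in replicate 2. Dusp16, the third member with such a transcript, was far lower, with 0.894% in replicate 1 and 0 in replicate 2 (percentiles 7.47 and 9.26). The second transcript tables gave Dusp1 63.1% in replicate 1 and 63.2% in replicate 2, Dusp2 36.3% and 44.8%, and Dusp16 6.02% and 3.77%. The tables have no entry for a wholly unspliced precursor, so reads of one can fall on whichever annotated transcript holds that intron; what part of these shares is precursor RNA was not tested.

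The edges of the kept introns are shown because the reading frame of the longest coding transcript, carried into them, can be followed there. These retained-intron transcripts have no annotated reading frame, and Dusp1-204 and Dusp2-202 begin downstream of the start codon. Each window holds 30 bases on the coding strand from the GENCODE M21 transcripts (mm10), with the first or last pair of intron bases in capitals. The Dusp1 intron 2 donor is at chr17:26507554-26507583, its acceptor at chr17:26507195-26507224, the intron 3 donor at chr17:26506965-26506994 and its acceptor at chr17:26506641-26506670, all on the minus strand. The Dusp2 intron 2 donor is at chr2:127336889-127336918 and its acceptor at chr2:127337229-127337258, on the plus strand.
Dusp1 intron 2 donor: ctacgatcagGTtagtaggagtccgggtcc
Dusp1 intron 2 acceptor: gactgtttttttgacttcAGgggggcccag
Dusp1 intron 3 donor: gacttcatagGTaaatggaataactatctg
Dusp1 intron 3 acceptor: cccataactttattttccAGactccatcaa
Dusp2 intron 2 donor: ctatgaccagGTgagttgatattcgaattt
Dusp2 intron 2 acceptor: ccgtccccttcctcctccAGggtggtcctg

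Dusp1 intron 2 is 369 bases long, Dusp1 intron 3 is 334 and Dusp2 intron 2 is 350. Carried on from the upstream exon, the reading frame of the longest coding transcript meets a stop codon in each of them before the intron ends. That frame therefore does not reach the loop codons printed above. Dusp2-202 in any case ends 36 bases into intron 3 and does not hold the loop codons. In Dusp1 the stop begins at base 109 of intron 2 (TAG) and at base 45 of intron 3 (TAG). In Dusp2 it begins at base 7 of intron 2, where the donor window above reads tga. Intron 2 interrupts the coding sequence after base 513 in Dusp1 and after base 522 in Dusp2, in the same phase. Of the 20 bases around the spliced junction, 15 are identical between the genes:
Dusp1 exon 2 to exon 3: ctacgatcaggggggcccag
Dusp2 exon 2 to exon 3: ctatgaccagggtggtcctg

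Dusp2 and Dusp1 also have the least intron of the family. The 3 introns of Dusp2 add up to 601 bases and those of Dusp1 to 940 in their longest coding transcripts, next to 1462 in Dusp6 and from 3880 in Dusp7 to 72049 in Dusp16 for the rest.

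**Figure D2:**
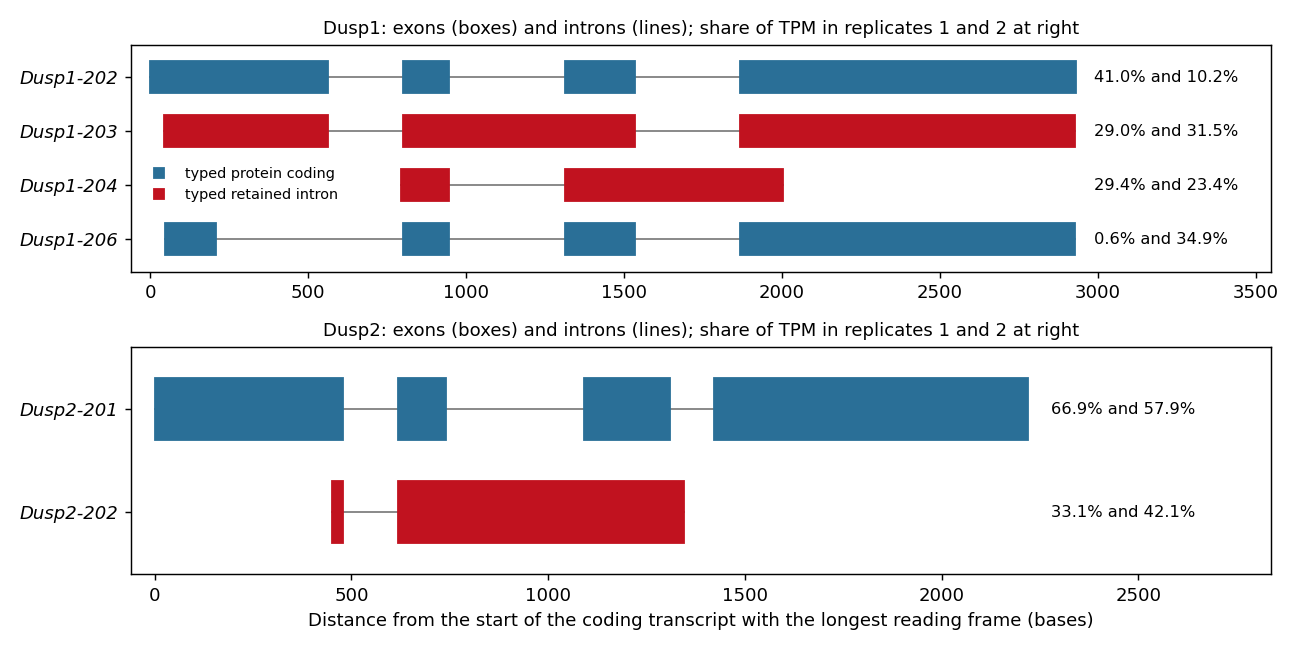
Exons (boxes) and introns (lines) of the annotated transcripts of Dusp1 and Dusp2 against distance in bases from the start of the longest coding transcript, with coding transcripts blue, retained-intron transcripts red, and each one's share of the gene's TPM in replicates 1 and 2 at the right. Dusp1-203 spans intron 2, Dusp1-204 intron 3 and Dusp2-202 intron 2; the 2 transcripts of Dusp1 not drawn start far upstream and are listed at 0.

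Apart from the kept introns, the coding RNA of Dusp1 was divided differently in the 2 libraries. Dusp1-202, with the full reading frame of 1101 bases, held 41.0% of the TPM in replicate 1 and 10.2% in replicate 2. Dusp1-206, with a shorter first exon and a frame of 522 bases, held 0.580% in replicate 1 and 34.9% in replicate 2. Their sum, 41.6% in replicate 1 and 45.1% in replicate 2, differed far less than either did. Both keep the loop codons, and they share exons 2 to 4, so they are told apart by the first exon.

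Dusp16 and Dusp3 each had a shortened coding transcript among their most abundant. Dusp16-204 reads on past exon 4 into 2316 bases of an intron of 13816 bases and held 21.9% of the TPM of Dusp16 in replicate 1 and 36.7% in replicate 2. Its frame of 618 bases ends at a TGA that begins at base 88 of that intron, before the exons with the loop codons, which it therefore lacks. Its donor window (chr6:134739792-134739821, minus strand) is shown with the intron's first pair of bases in capitals, the site where the full transcript is spliced.
Dusp16 intron 4 donor: cctcaacaagGTgggtgcttcaaaacacct

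The full-length Dusp16-201, with 1980 coding bases, held 41.6% in replicate 1 and 32.2% in replicate 2, and Dusp16-202 31.8% and 28.5%. The second transcript tables gave 30.6% in replicate 1 and 20.3% in replicate 2 for Dusp16-201, and 17.6% and 18.9% for Dusp16-202. They gave 18.0% and 25.9% for Dusp16-204, 12.3% and 14.1% for Dusp16-203, and 15.4% and 17.0% for Dusp16-205. In the first tables Dusp16-203 held 3.45% and 2.64%, and Dusp16-205 was at 0 in both libraries. Dusp3-206, with a frame of 351 bases that keeps the loop, held 41.0% of the TPM of Dusp3 in replicate 1 and 72.8% in replicate 2. Dusp3-201, with 555 coding bases, held 36.6% in replicate 1 and 16.1% in replicate 2. By TPM, Dusp3-206 was the leading transcript of Dusp3 in both libraries, and Dusp16-201 that of Dusp16 in replicate 1 only. The lead of Dusp3-206 in replicate 1 was not firm. Its credibility interval there was 2.31 to 5.50 TPM, against 2.64 to 5.72 for Dusp3-201. By posterior mean, Dusp3-206 held 36.4% and Dusp3-201 36.7% in replicate 1. In the second transcript tables Dusp3-206 held 45.2% and Dusp3-201 27.0% in that library.

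The low members had too few counts for a firm split. The tables placed Dusp6 on the full Dusp6-201 at 89.2% in replicate 1 and 16.9% in replicate 2, and on Dusp6-204, which lacks the middle exon, at 0 and 83.1%, over 96 and 36 counts. For Dusp10, Dusp10-201 held 100% in replicate 1 and 67.1% in replicate 2. For Dusp8, Dusp8-201 held 97.6% in replicate 1 and 75% in replicate 2. Dusp7 was steadier, with 85.1% in replicate 1 and 84.2% in replicate 2 on Dusp7-201, though the second transcript tables gave that transcript 35.5% and 43.2%. Dusp4 and Dusp5 have 1 annotated transcript each, so their share is 100% by construction.

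By annotation, 19 of the family's 24 coding transcripts hold the loop codons in their reading frame, and none of the other 12 transcripts does. Transcripts with the loop in frame held 41.6% of the TPM of Dusp1 in replicate 1 and 45.1% in replicate 2, 66.9% and 57.9% of that of Dusp2, and 73.4% and 60.7% of that of Dusp16. They held 84.5% in replicate 1 and 88.9% in replicate 2 for Dusp3, and 86.7% and 84.2% for Dusp7. In the second transcript tables these shares were lower for Dusp16, at 48.1% in replicate 1 and 39.3% in replicate 2, and for Dusp7, at 40.8% and 43.2%, while that of Dusp1 was 36.9% and 36.8%. Dusp1, one of the most abundant members, had the lowest such share of the 10 in both libraries and in both kinds of table.

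The median share of a member's TPM on its leading transcript was 87.1% in replicate 1 and 70.0% in replicate 2 (78.6 ± 12.1, SD, n = 2). Over all protein-coding genes that averaged at least 10 counts it was 62.5% in replicate 1 and 61.9% in replicate 2. Over those with several transcripts it was 58.8% and 58.3%. The 10 members include Dusp4 and Dusp5, which have 1 annotated transcript each. The members' median is therefore not matched to that of genes with several transcripts, and a median without Dusp4 and Dusp5 was not taken. For the 5 members with a transcript not typed protein coding, the median share on such transcripts was 13.3% in replicate 1 and 15.8% in replicate 2, against 27.0% and 33.7% over 9104 protein-coding genes. The second transcript tables gave 36.3% in replicate 1 and 44.8% in replicate 2 for these members, against 42.9% and 47.4% over the same genes, so the gap rests largely on the table used.

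**Figure D3:**
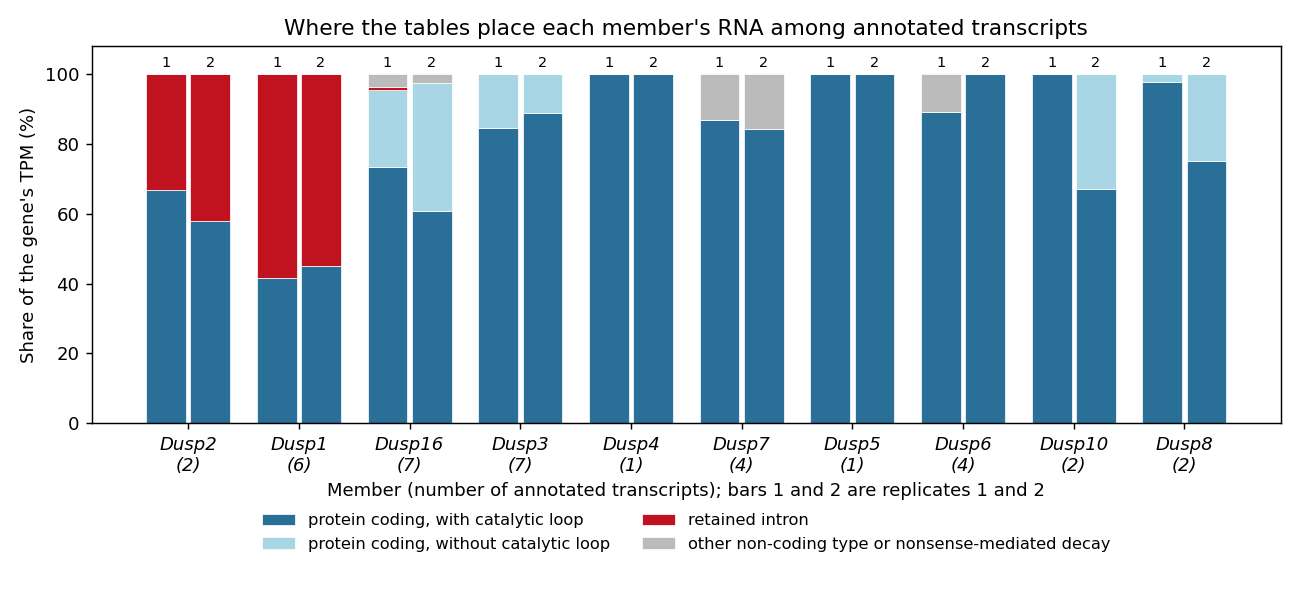
Share of each member's TPM, in percent, on coding transcripts with the catalytic loop (dark blue), coding transcripts without it (light blue), retained-intron transcripts (red) and other types (grey), for replicate 1 (left bar) and replicate 2 (right bar). The red share is 58.4% and 54.9% for Dusp1 and 33.1% and 42.1% for Dusp2, and the light blue share of Dusp16 is 21.9% and 36.7%.

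The 2 libraries were then compared gene by gene, as counts scaled with TMM (a scaling in which the typical gene is taken as unchanged), to see which members differed beyond counting error. Of the 10 members, 6 were higher in replicate 1, and the other 4 did not pass. No member passed as lower, nor did any at an unadjusted p under 0.05 or with the size factors of DESeq2. Scaled by library size alone, Dusp16 and Dusp3 passed as lower. Over all 14698 genes tested, 59.9% differed in either direction, 30.2% being higher and 29.7% lower in replicate 1, so a difference of this kind was common. The test compares 2 libraries of 1 condition and covers counting error only. The common biological coefficient of variation of the replicates was 0.335, and the log2 ratio had an SD of 0.87 over all genes tested.

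Dusp1, Dusp8 and Dusp2 lay furthest to the side of replicate 1. Dusp1 had 2181 counts in replicate 1 and 561 in replicate 2, a log2 ratio of 1.37 (exact binomial test, Benjamini-Hochberg adjusted p = 2.84e-104). Dusp2 had 2313 counts in replicate 1 and 628 in replicate 2, a log2 ratio of 1.30 (adjusted p = 3.25e-101, same exact test). Dusp8 had 91 counts in replicate 1 and 24 in replicate 2, a log2 ratio of 1.32 (adjusted p = 4.28e-05, same exact test). These ratios stood at percentile 96.8 of all genes tested for Dusp1, 96.3 for Dusp2 and 96.5 for Dusp8. As log2 ratios of TPM + 1, taken relative to the median gene at -0.43, they were 1.09 for Dusp1, 0.98 for Dusp2 and 0.53 for Dusp8.

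Dusp6, Dusp7 and Dusp4 differed less. The log2 ratio was 0.82 for Dusp6 (adjusted p = 0.00512), 0.75 for Dusp7 (adjusted p = 2.16e-11) and 0.32 for Dusp4 (adjusted p = 0.00258), by the same exact binomial test. Dusp4 did not pass when the counts were scaled by library size alone (log2 ratio 0.15, adjusted p = 0.168, same exact test). Dusp16, Dusp3, Dusp10 and Dusp5 had log2 ratios of -0.04, 0.00, 0.09 and -0.43, with adjusted p of 0.376, 1, 0.863 and 0.175 by the exact binomial test. The sign was not fixed for Dusp16 and Dusp3: scaled by library size both passed as lower in replicate 1 (-0.21 and -0.16), and with the second transcript tables both passed as higher (0.26 and 0.30).

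The ratio between the libraries also moved with the GC content of the transcript. In 20 bins of GC content, the median log2 ratio of all genes tested ran from -0.84 in the bin of lowest GC to 0.57 in the bin of highest GC. Dusp2, at 59.2% GC, lay in a bin with a median of 0.57, Dusp8, at 58.8%, in one of 0.43, and Dusp1, at 54.0%, in one of 0.25. The ratios of these 3 members were all above the median of their bin, by 0.72 for Dusp2 and 1.12 for Dusp1. Dusp6, at 49.0% GC, was 0.83 above its bin, and Dusp5, at 56.7% GC, differed from its bin by -0.78. Dusp4, Dusp3 and Dusp16 lay close to their bins, with differences of -0.03, 0.01 and 0.01. What part GC content, the amount of starting RNA or the mitochondrial share had in these differences was not tested.

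**Figure D4:**
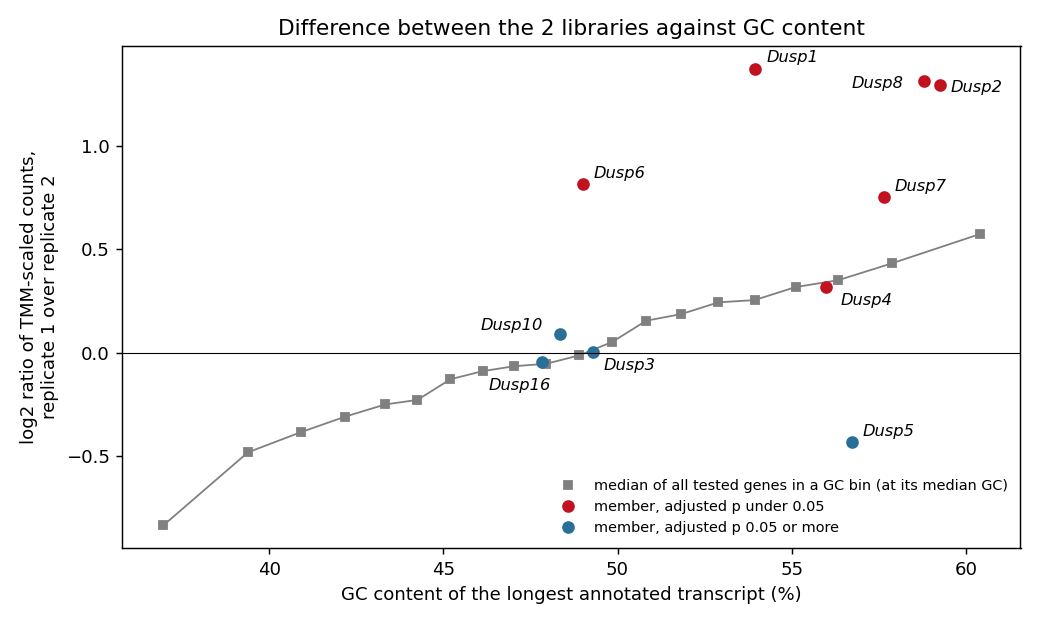
Log2 ratio of TMM-scaled counts, replicate 1 over replicate 2, against the GC content in percent of each member's longest transcript, with members that passed the test in red and the others in blue; grey squares are medians of all genes tested in 20 bins of GC content. Dusp1, Dusp2 and Dusp8 stand between 1.30 and 1.37, while Dusp4, Dusp3 and Dusp16 lie on the grey line.

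The promoters of the 3 members with a log2 ratio above 1 by the gene tables are shown. With the second transcript tables the log2 ratio was 1.57 for Dusp1, 1.47 for Dusp2, 1.18 for Dusp6 and 0.80 for Dusp8, so which members exceed 1 depends in part on the table. Each holds 250 bases before and 50 after the start site, from RefSeq (GRCm38.p6), 5′ to 3′ on the strand of the gene. The table had promoters for 9 of the 10 members, all but Dusp4. Matches to a CRE (TGACGTCA, the site of CREB) or an E-box (CACGTG) are in capitals. They lie at chr17:26508423-26508722 (minus strand), chr2:127335909-127336208 (plus strand) and chr7:142095235-142095534 (minus strand).
Dusp1 promoter: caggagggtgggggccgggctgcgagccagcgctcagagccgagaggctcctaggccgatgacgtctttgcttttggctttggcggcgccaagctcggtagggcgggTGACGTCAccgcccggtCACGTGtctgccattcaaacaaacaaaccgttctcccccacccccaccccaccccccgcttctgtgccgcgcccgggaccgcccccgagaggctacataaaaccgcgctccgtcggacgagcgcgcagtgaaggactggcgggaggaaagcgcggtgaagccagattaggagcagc
Dusp2 promoter: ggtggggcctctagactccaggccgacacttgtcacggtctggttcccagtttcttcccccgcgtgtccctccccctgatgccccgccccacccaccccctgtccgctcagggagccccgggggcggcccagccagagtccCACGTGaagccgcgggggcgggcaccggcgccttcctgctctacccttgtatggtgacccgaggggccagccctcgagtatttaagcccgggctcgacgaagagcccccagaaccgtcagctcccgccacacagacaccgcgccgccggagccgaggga
Dusp8 promoter: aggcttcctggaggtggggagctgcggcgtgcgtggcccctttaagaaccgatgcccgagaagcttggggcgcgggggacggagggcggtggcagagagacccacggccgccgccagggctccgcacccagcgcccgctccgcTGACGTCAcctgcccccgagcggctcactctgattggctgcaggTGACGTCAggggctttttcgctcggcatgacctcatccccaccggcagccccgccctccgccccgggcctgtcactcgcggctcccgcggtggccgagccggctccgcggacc

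The Dusp1 promoter holds a CRE that begins 143 bases before the start site and an E-box 126 bases before it. The Dusp2 promoter holds an E-box at 109 bases before the start, and the Dusp8 promoter CREs at 107 and 63 bases before it. Searched on both strands, the CRE was found in 1.79% and the E-box in 7.15% of the 32841 promoters of the table. Of the other motifs searched, the CArG box, the site of serum response factor, was found in Dusp5, in a pair that begins 82 and 72 bases before the start, and in 1.63% of all promoters. An AP-1 site (TGANTCA, in 7.81% of promoters), a TATAAA (13.6%) and an NF-kB site (4.51%) were found in none of the 9. None of these matches overlaps another. A match describes letters in these windows and not binding.

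The MAP kinases that these enzymes act on were present in the same nuclear RNA. Against the phosphatases' median of 4.69 TPM in replicate 1 and 5.13 in replicate 2, the 14 MAP kinase genes had one of 4.74 and 8.25, and 8 of them were detected. The atypical Mapk6 was the highest, with 37.3 TPM in replicate 1 and 48.4 in replicate 2. The ERK gene Mapk3 had 14.9 TPM in replicate 1 and 18.5 in replicate 2. The JNK gene Mapk9 had 12.4 TPM in replicate 1 and 22.5 in replicate 2, above Mapk8, the other JNK, at 4.6 and 9.74. The p38 gene Mapk14 had 12.9 TPM in replicate 1 and 20.98 in replicate 2. Mapk4, Mapk10, Mapk12, Mapk13 and Mapk15 were under TPM 1 in both. Thus ERK, JNK and p38 genes each had a member above 10 TPM in both libraries, as had Dusp2, Dusp1, Dusp16 and Dusp3.

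Upstream, 6 of 7 MAP kinase kinases were detected, led by the ERK activators Map2k1 (20.6 TPM in replicate 1 and 20.9 in replicate 2) and Map2k2 (16.1 and 15.4). The p38 activator Map2k6 was low, at 0.11 TPM in replicate 1 and 0.26 in replicate 2. Of 19 MAP kinase kinase kinases, 15 were detected, led by Map3k8 (TPL2, the kinase that links TLR4 to ERK) at 23.1 TPM in replicate 1 and 43.1 in replicate 2. Map3k9, Map3k13 and Mos were under TPM 1 in both. Of the 11 kinases that MAP kinases activate, 10 were detected, and Mapkapk2 (MK2, a p38 target that stabilizes cytokine mRNAs) had 76.3 TPM in replicate 1 and 79.3 in replicate 2, followed by Mknk1 at 19.8 and 25.6. Rps6ka6 was listed at 0.

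Other negative regulators of the pathway were read in the same way. Of 8 other phosphatases and phosphatase-like genes of the pathway, 3 were detected, led by Ppm1b (19.9 TPM in replicate 1 and 28.7 in replicate 2) and Ppm1a (15.4 and 19.1), which remove phosphate from serine and threonine. Dusp9, the remaining classical member of the family in cytoplasm, was under TPM 1 in both libraries, as were Ptpn5, Ptprr and Styxl1. Of 13 atypical dual-specificity phosphatases, 5 were detected, and Dusp11, an RNA phosphatase, was the highest with 29.3 TPM in replicate 1 and 52.6 in replicate 2, followed by Styx at 2.77 and 8.61. Of the 7 Sprouty and SPRED genes, inhibitors of the Ras to ERK route, 2 were detected: Spred1, with 51.3 TPM in replicate 1 and 58.8 in replicate 2, and Spred2, with 3.40 and 6.84. Spry1, Spry2, Spry3 and Spry4 were under TPM 1 in both libraries, as was the ERK feedback phosphatase Dusp6.

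In the comparison of the libraries with TMM scaling, 6 of the 10 phosphatases were higher and none lower in replicate 1. Over all 14698 genes tested, 30.2% were higher and 29.7% lower. Of 9 MAP kinases tested, 4 were higher and 4 lower, of 17 MAP kinase kinase kinases 5 and 6, and of 10 MAP kinase-activated kinases 5 and 3. Of 6 MAP kinase kinases 2 were higher and 2 lower, of 8 atypical phosphatases 2 and 3, of 5 Sprouty and SPRED genes 2 and 1, and of 4 other phosphatases none and 1. Scaled by library size alone, 5 of the phosphatases were higher and 2 lower. The difference between the lists was not tested.

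**Figure D5:**
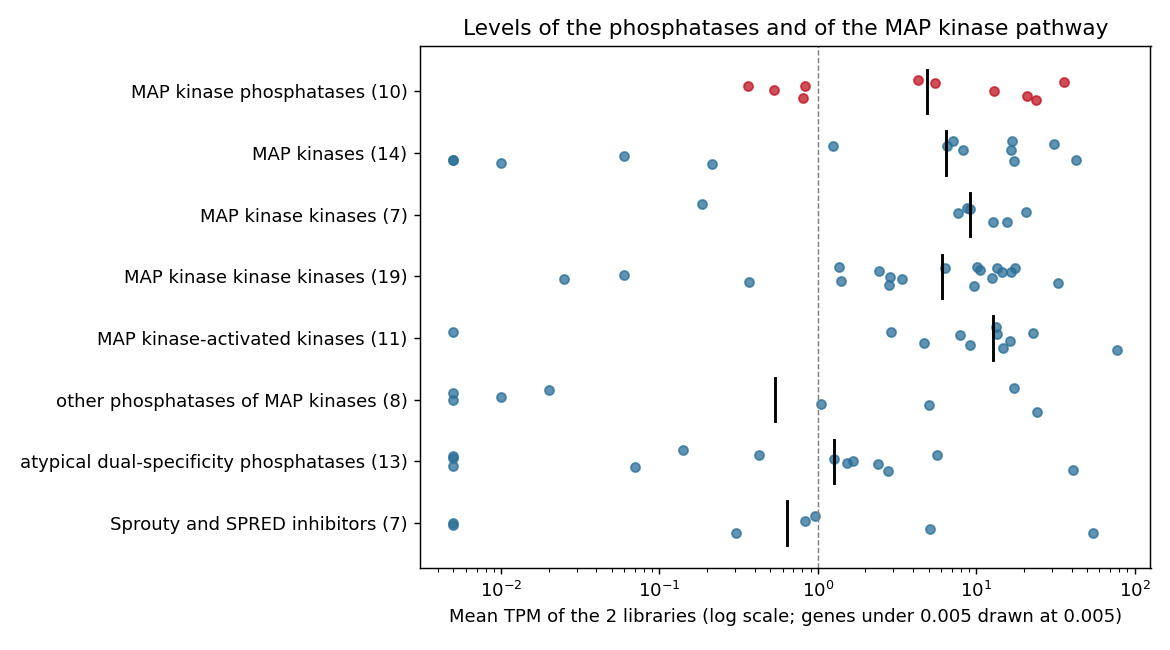
Mean TPM of the 2 libraries on a log scale for each gene of the 10 phosphatases (red) and of 7 lists of the MAP kinase pathway (blue), 1 point per gene, with the list's median as a black bar and TPM 1 as a dashed line. The phosphatases fall into a group of 6 above 4 TPM and a group of 4 below 1.

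Some members share ground with other genes, and the strand setting of the counting was not given in the sources used here. On the opposite strand, Gm20659 in Dusp3 had 45.2 counts in replicate 1 and 7.07 in replicate 2, and Gm36328 in Dusp16 had 15 and 35, small beside the counts of those members. Ergic1, with 533 counts in replicate 1 and 468 in replicate 2, overlaps the far upstream end of Dusp1 by 640 bases. Reads in these overlaps cannot be told apart if strand was not used.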

How the data were processed

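Per the labels, RNA of the nuclear fraction was depleted of ribosomal RNA and sequenced, 1 library for each of 2 replicates. The authors deposited a gene table and a transcript table with expected counts, TPM, posterior mean TPM and isoform percent values (how a gene's TPM divides among its transcripts), and a second transcript table with estimated counts and TPM. Build mm10 and annotation GENCODE M21 are named per the file headers; tools, aligner and strand setting are not given in the sources used here. Column names are those of RSEM in the first tables and of kallisto in the second. The 26345 rows that name no mouse gene held 1.79% of the counts in replicate 1 and 0.318% in replicate 2 and were left out. Nearly all of these counts were on phiX.

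From these files, levels were taken as deposited TPM, with the mean and SD of the 2 libraries. Shares are a transcript's TPM over the sum of its gene's transcripts, and the deposited bounds of TPM give each estimate's precision. Between the libraries, expected counts rounded to whole numbers were compared with an exact two-sided binomial test, given library sizes scaled by TMM (edgeR 4.0.16, R 4.3.3), for the 14698 genes averaging 10 counts or more, Benjamini-Hochberg adjusted over all of them at 0.05; log2 ratios used a prior count of 0.5 and are replicate 1 over replicate 2. A quasi-likelihood test needs a second group. On counts simulated with counting error alone, 149 of 200 genes changed 2-fold were recovered, with 4 false calls. The real libraries spread more than that, so these figures do not give the error rate of the comparison here. GC content is that of a gene's longest transcript. Other tools were DESeq2 1.42.0, Biopython 1.88, matplotlib 3.10.9, scipy 1.17.1, pandas 2.3.3 and numpy 2.4.6 under Python 3.11.15.

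The 10 members and the pathway and marker lists were chosen with earlier results of these data known. All members are named. Of each pathway list, the text names the 2 genes of highest mean TPM, those under TPM 1 in both libraries where there are 5 or fewer, and Mapk3, Mapk8, Mapk9 and Mapk14; some genes under this rule are not reported here. Alternatives were other scalings and filters, other detection limits, posterior mean values, TPM rescaled without short structural and mitochondrial RNAs, the second transcript table and each library alone. For the shares of single members and of roles, the second table and posterior mean values (members only) were added after seeing the data. Counting error is the precision that depth gives; PCR copies were not marked.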

Additional observations from a re-analysis of the deposited data

How the results depend on the processing

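No paired analysis was possible because there is 1 group. The count of members detected was 8 at TPM 0.5 and 6 at TPM 2, with posterior mean TPM and with the second transcript table, and 6 to 7 in one library alone. It was not taken on TPM rescaled without short structural and mitochondrial RNAs, where Dusp5, Dusp6 and Dusp10 were above 1 in both libraries. The median TPM of the members was 4.58 in the second transcript table, 17.8 when TPM was rescaled without short structural and mitochondrial RNAs, and 4.69 to 5.13 in one library alone. The median share on the leading transcript was 61.8% in the second transcript table and 63.3% by posterior mean, against 78.6%, and 70.0% to 87.1% in one library alone. The median share on transcripts not typed protein coding was 40.5% in the second transcript table, against 14.5%. The cause of these differences was not tested. The count of members that differed between libraries was 6 with DESeq2 size factors, without a filter and at a mean count of 50 or more, 7 by library size and 8 with the second transcript table. Scaling by library size put the median of all genes at -0.17 and the share of called genes that were higher in replicate 1 at 36.01%, against 50.4%. The sign of the log2 ratio turned for Dusp16 with the second transcript table (0.26, adjusted p = 6.23e-13, exact binomial test) and for Dusp3 by library size (-0.16, adjusted p = 0.00772, same exact test). Counts of detected genes in the 7 pathway lists stayed within 1.5 times in the second transcript table. With 24 to 96 counts in Dusp6, Dusp8, Dusp10 and Dusp5, depth limits their transcript shares.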
